A study of Mus musculus with 4 samples.

Results

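Genes of the interleukin 2 receptor and of its STAT5 feedback loop were followed in mouse T-helper 2 (Th2) cells. The 10 genes were picked by name from the 50600 in the files, before any filter on counts, and all 10 had enough counts to be tested. They are the receptor chains Il2ra and Il2rb, the kinase Jak3, the transcription factors Stat5a, Stat5b and Stat3, the feedback inhibitor Cish, the kinase Pim1, and a pair of antisense genes, Gm17041 opposite Cish and Gm26885 opposite Pim1. RNA was sequenced from primary Th2 cells of C57BL/6NJ mice in 4 libraries, the only group of the study, so genes were compared within libraries and libraries with each other. The labels give no treatment, genotype or age, they name a protocol for differentiating CD4 T cells, and a time of 72 h stands in the file headers without its meaning. Each library has its own biosample under the same donor label. Nothing states that the libraries came from separate animals, so a p-value here speaks only of how far these libraries differ, and that spread may be technical.

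Interleukin 2 is a growth factor of activated T cells. Its beta and gamma receptor chains carry the kinases JAK1 and JAK3, and the alpha chain raises the affinity of the complex. The activated kinases phosphorylate STAT5A and STAT5B, which enter the nucleus and induce Il2ra itself, the survival kinase gene Pim1 and Cish, whose protein binds the receptor and dampens the signal. In helper T cells this pathway favours the Th2 fate.

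Library sizes set what could be seen. Replicates 1, 3 and 4 held 2388255, 1929880 and 1713199 gene counts and replicate 2 held 5016. In replicate 2 the antisense genes had 12 (Gm17041) and 8 (Gm26885) counts, Pim1 had 1 and the other 7 genes had 0. A gene with 0 counts could stand at up to 598.09 CPM (counts scaled to the library total) there, taking a floor of 3 counts, against 1.26 to 1.75 CPM in the other libraries. The results below use replicates 1, 3 and 4. Replicate 3 stood apart from replicates 1 and 4 in many genes, and results that rest on it are given beside the values of that comparison. Counts were taken on the annotated strand only. A fragment from the other strand entered the tables only if a different gene is annotated on that strand, so every value below describes one strand of a locus. The counts were made with strand setting 1, and whether this setting matches the kit was not tested. Genes without opposite-strand exons held 9.26%, 5.78% and 8.67% of the counts in replicates 1, 3 and 4. Of 3586 protein-coding genes set against their most counted opposite-strand gene, 66.7% had fewer counts per base than that gene in each of the 3 libraries. If the setting were reversed, counts listed for an antisense gene at shared bases would be fragments of the gene it lies opposite. The counts listed for every other gene, Il2ra, Il2rb and Jak3 as well as Cish, would then come from its other strand. Levels, ranks and ratios below are therefore those of the strand as listed.

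The antisense sequences are shown because the results for Cish and Pim1 turn on which strand of the same bases was counted. The first is the last stretch of the Gm17041 transcript, at chr9:107300380-107300553 (mm10, minus strand), and its capitals mark bases that lie opposite positions coding in 2 annotated transcripts of Cish. All bases of this stretch, the lower-case ones among them, lie opposite bases counted as coding in Cish. The second is the first stretch of a Gm26885 transcript, at chr17:29491640-29491925 (mm10, minus strand), whose capitals mark bases opposite the coding sequence of Pim1 and whose lower-case bases lie opposite a Pim1 intron. Both were read 5′ to 3′ from the GENCODE vM21 transcripts.
Gm17041: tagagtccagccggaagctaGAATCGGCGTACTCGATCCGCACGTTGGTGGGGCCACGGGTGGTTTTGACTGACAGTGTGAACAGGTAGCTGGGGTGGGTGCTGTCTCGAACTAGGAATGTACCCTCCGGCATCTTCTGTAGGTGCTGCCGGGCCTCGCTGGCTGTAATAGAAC
Gm26885: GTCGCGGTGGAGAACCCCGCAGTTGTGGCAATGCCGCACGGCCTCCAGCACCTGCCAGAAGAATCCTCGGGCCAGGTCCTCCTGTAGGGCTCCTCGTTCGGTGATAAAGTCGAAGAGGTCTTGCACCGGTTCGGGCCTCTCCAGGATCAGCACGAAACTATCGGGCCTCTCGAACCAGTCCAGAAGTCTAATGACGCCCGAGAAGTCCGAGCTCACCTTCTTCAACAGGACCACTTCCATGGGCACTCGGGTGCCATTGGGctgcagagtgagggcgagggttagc
The third sequence is the start of Cish at chr9:107296654-107296683 (GRCm38.p6, plus strand), from the RefSeq table of promoter windows, which run from 250 bases before to 50 bases after each gene start. Its capitals mark both matches to TTCNNNGAA, the palindromic motif known to be bound by STAT5 dimers. They begin at bases 1 and 12 counted from the RefSeq start and are 2 bases apart. The Cish gene as counted here, on GENCODE exons, begins earlier, at chr9:107296026, so the printed stretch lies inside its first exon.
Cish start: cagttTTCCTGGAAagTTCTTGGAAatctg
The motif was searched as these letters, which cover both strands because the motif is its own reverse complement. It was found in 2726 of all 32851 windows of this length (8.30%). Of the 10 genes, 8 had windows in the table, 11 windows in all, and 1 gene (Cish) had a match. A match describes the letters in the window only. Il2rb and Gm17041 were not in the table.

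All 10 genes lay above 1 TPM (the TPM level being counts divided by exonic length and scaled to the same total in every library) in the limma test of log2(TPM + 0.1), beside 80.4% of the 6922 genes tested. The mean level spanned Gm17041 at 17194 ± 649.9 TPM and Gm26885 at 2174 ± 108.3 TPM down to Jak3 at 2.85 ± 1.53 TPM (SD, n = 3, as for the means below). Between these came, in falling order, Il2ra, Pim1, Stat3, Il2rb, Stat5a, Cish and Stat5b. The order of neighbours was the same in 3 of 3 libraries for 5 of the 9 neighbouring pairs. Pim1 and Stat3, Stat3 and Il2rb, Il2rb and Stat5a, and Cish and Stat5b kept their order in 2 of 3 libraries each, so these neighbours did not differ beyond their spread.

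**Figure D1:**
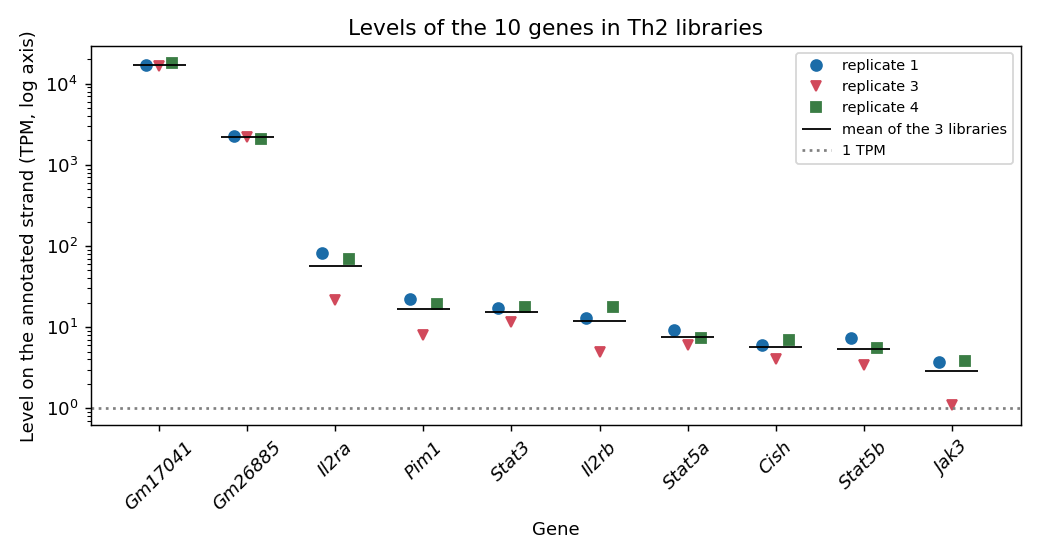
Level of each of the 10 genes on its annotated strand in TPM (log axis) in replicates 1, 3 and 4 (points), with the mean of the 3 libraries as a bar and 1 TPM as a dotted line. Gm17041 and Gm26885 lie above the 8 protein-coding genes, and for those 8 genes the point of replicate 3 is the lowest.

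The receptor chains came first. Il2ra (ENSMUSG00000026770.5, chr2:11642807-11693193, plus strand) encodes the alpha chain. It had 773, 168 and 465 counts in replicates 1, 3 and 4, or 81.0, 21.5 and 68.7 TPM, a mean of 57.1 ± 31.4 TPM. Its level ranked 1561 among all genes and exceeded 1 TPM by 5.49 ± 0.37 on the log2(TPM + 0.1) scale (SE, limma, adjusted p = 1.87e-05). Replicate 3 was low and replicates 1 and 4 lay close together. Il2rb (ENSMUSG00000068227.8, chr15:78480553-78495066, minus strand), the beta chain, had 61, 19 and 58 counts, or 13.1, 4.98 and 17.6 TPM. Its mean was 11.9 ± 6.38 TPM, and it lay 3.27 ± 0.37 above 1 TPM on the log2(TPM + 0.1) scale (SE, limma, adjusted p = 0.000258). Replicate 3 was again the lowest library. Per base of exon, Il2ra held 4.97 times the counts of Il2rb over the 3 libraries (95% counting interval 4.17 to 5.96), and 6.18, 4.31 and 3.91 times in replicates 1, 3 and 4. The gamma chain gene Il2rg, named here as the remaining chain and after its values were seen, had 10, 9 and 20 counts and a mean of 4.11 ± 2.57 TPM. Il2ra held 15.1 times its counts per base (11.0 to 21.3), and the library values of 32.3, 7.80 and 9.72 all lay outside this interval. Neither Il2ra nor Il2rb has annotated exons opposite its own.

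Jak3 (ENSMUSG00000031805.17, chr8:71676296-71690575, plus strand), the kinase bound by the gamma chain, had the lowest level of the 10 genes. It had 33, 8 and 24 counts, or 3.69, 1.09 and 3.78 TPM. Its mean of 2.85 ± 1.53 TPM lay 1.24 ± 0.45 above 1 TPM on the log2(TPM + 0.1) scale (SE, limma, adjusted p = 0.0429). The call was lost without replicate 1 (adjusted p = 0.220) and without replicate 4 (0.254). Replicate 3 stood near 1 TPM and the others well above it. The last exon of Jak3, 404 bases long, is also an exon of Insl3 on the same strand in the files, so fragments lying there were assigned to neither gene, and Insl3 had 0 counts in every library. Among the other kinases of the family, Jak2, which serves receptors outside the gamma chain family, held 10.6 times the counts per base of Jak3 (8.19 to 13.9), with 10.4, 9.58 and 11.1 times in replicates 1, 3 and 4. Jak1, the partner of JAK3 at the receptor, held 1.29 times (0.941 to 1.77), an interval that includes 1.

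The STAT genes lie side by side on chromosome 11. Stat3 (ENSMUSG00000004040.16, chr11:100885098-100939540, minus strand), a signal transducer of interleukins 6 and 21, had 277, 152 and 198 counts, or 17.4, 11.6 and 17.5 TPM, a mean of 15.5 ± 3.36. Stat5a (ENSMUSG00000004043.14, chr11:100859351-100885169, plus strand) had 111, 58 and 62 counts, or 9.32, 5.93 and 7.33 TPM, a mean of 7.53 ± 1.70. Stat5b (ENSMUSG00000020919.11, chr11:100780731-100850724, minus strand) had 68, 26 and 36 counts, or 7.35, 3.43 and 5.48 TPM, a mean of 5.42 ± 1.96. Replicate 3 was the lowest library for each of the STAT genes, with smaller log2 folds than for Il2ra and Il2rb in the test of replicate 3 given below. Stat3 exceeded 1 TPM by 3.80 ± 0.19 on the log2(TPM + 0.1) scale (SE, limma, adjusted p = 3.97e-06). The adjusted p of the same test was 6.29e-05 for Stat5a and 0.000628 for Stat5b. Stat5a held 1.38 times the counts per base of Stat5b (1.11 to 1.72), in the same direction in 3 of 3 libraries at 1.27, 1.73 and 1.34 times. These paralogs are nearly identical over much of their coding sequence and fragments that map to both were not counted, so their levels and their ratio are uncertain.

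Stat3 and Stat5a meet end to end on opposite strands, and their exons overlap by 72 bases outside the coding sequence. Stat3 held 29.1, 16.0 and 20.8 counts per kb and Stat5a held 15.6, 8.13 and 8.69 in replicates 1, 3 and 4. Stat3 was the higher gene in each library. The difference was 1.04 ± 0.21 on the log2 scale (SE, limma over 3048 opposite-strand pairs, adjusted p = 0.00519). In that test the longer gene, here Stat3, was called higher in 26.2% of pairs and lower in 65.6%. Pooled over the libraries, Stat3 held 2.03 times the counts per base of Stat5a (1.74 to 2.37).

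Cish (ENSMUSG00000032578.7, chr9:107296026-107302784, plus strand), the feedback inhibitor, had few counts listed on its own strand and very many listed opposite it. Its own counts were 64, 36 and 53 in replicates 1, 3 and 4, or 5.97, 4.09 and 6.96 TPM, a mean of 5.68 ± 1.46. Gm17041 (ENSMUSG00000090570.1, chr9:107300380-107301838, minus strand), annotated as antisense, had 13621, 10925 and 10172 counts, or 17023, 16646 and 17912 TPM. As listed, its mean level ranked 6 among all 50600 genes, it took 0.577% of all counts, and its highest library exceeded its lowest 1.08-fold in TPM. The libraries of Gm17041 were thus close together, while those of Cish differed 1.70-fold on far fewer counts. Variation between libraries was called by edgeR for neither gene. Which of the strands these fragments came from rests on the strand setting, which was not tested. All 479 exonic bases of Gm17041 lie inside the third exon of Cish, 321 of them opposite coding bases and 158 opposite noncoding bases, and the stretch printed above belongs to the first kind.

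Per kb of exon, Cish held 9.97, 5.61 and 8.26 counts in replicates 1, 3 and 4 and Gm17041 held 28436, 22808 and 21236. The density of Cish was 0.0351%, 0.0246% and 0.0389% of that of Gm17041, with no overlap between the genes in any library. The difference was -11.58 ± 0.16 on the log2 scale (SE, limma, adjusted p = 8.05e-06), beside 65.6% of pairs in which the longer gene was called lower. Pooled, Gm17041 held 3041 times the counts per base of Cish (2594 to 3588, counting error only). This ratio is one of whole genes, over 6419 exonic bases of Cish and 479 of Gm17041, and not of the shared bases. With no length correction the pooled ratio of Cish to Gm17041 was 0.00441. Ordered from the lowest ratio of the longer gene to the shorter, the pair stood at place 13 of 302 pairs with at least 90% of the shorter gene inside the longer. The median of these 302 pairs was -7.26 on the log2 scale and that of all 3048 pairs was -3.68. As a share of the fragments counted at either gene, Cish took 0.468% in replicate 1, with a 95% Wilson interval of 0.366 to 0.597. The share was 0.328% (0.237 to 0.454) in replicate 3, and replicate 4 had 0.518% (0.397 to 0.677).

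A further gene lies opposite the other end of Cish. Gm17040 (ENSMUSG00000091366.1, chr9:107292435-107297192, minus strand), a transcribed pseudogene in the annotation, overlaps the first exon of Cish by 261 bases. It had 3612, 2989 and 2320 counts, or 1880, 1897 and 1702 TPM. Cish held 0.317%, 0.216% and 0.409% of its counts per base in replicates 1, 3 and 4. The difference was -8.35 ± 0.21 on the log2 scale (SE, limma, adjusted p = 8.05e-06). Only 22.7% of the exonic bases of Gm17040 lie opposite Cish, and its other exon, of 889 bases, lies beyond the start of Cish. The counts of Gm17040 thus cannot be placed at the shared bases from gene totals. As whole genes, Gm17041 and Gm17040 each had more counts per base than Cish in each of the 3 libraries.

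**Figure D2:**
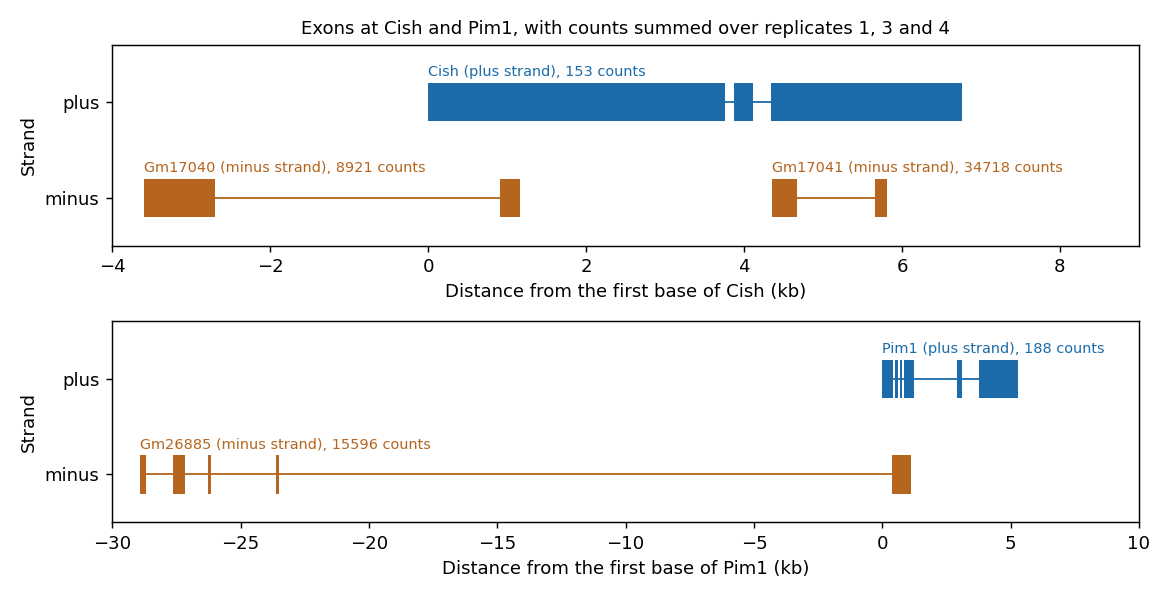
Exons (boxes) of Cish, Gm17041 and Gm17040 in the upper panel and of Pim1 and Gm26885 in the lower panel, by strand and by distance in kb from the first base of Cish or Pim1 on the annotation, with the counts of each gene summed over replicates 1, 3 and 4. The minus-strand genes hold 34718, 8921 and 15596 counts against 153 for Cish and 188 for Pim1.

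Pim1 (ENSMUSG00000024014.7, chr17:29490812-29496111, plus strand), a survival kinase induced by STAT5, showed the same order of strands. It had 98, 29 and 61 counts, or 22.2, 8.02 and 19.5 TPM, a mean of 16.6 ± 7.54. Gm26885 (ENSMUSG00000097125.1, chr17:29461896-29491925, minus strand) had 6411, 5065 and 4120 counts, or 2274, 2190 and 2059 TPM. Pim1, with far fewer counts, was low in replicate 3, whereas the 3 libraries of Gm26885 lay close together. The exons of the pair overlap by 468 bases, 27.7% of Gm26885 and 17.7% of Pim1, and all 468 are coding in Pim1. The rest of that exon of Gm26885 lies opposite Pim1 introns, and its other 4 exons lie beyond the start of Pim1, so its counts cannot be placed at the shared bases from gene totals.

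Per kb of exon, Pim1 held 37.1, 11.0 and 23.1 counts in replicates 1, 3 and 4 and Gm26885 held 3798, 3001 and 2441. The density of Pim1 was 0.978%, 0.366% and 0.947% of that of Gm26885. The difference was -7.15 ± 0.31 on the log2 scale (SE, limma, adjusted p = 1.28e-05), and Gm26885 held 129.6 times the counts per base of Pim1 when pooled (112 to 151). Of the fragments counted at either gene, Pim1 took 1.51% (Wilson 95% interval 1.24 to 1.83), 0.569% (0.397 to 0.816) and 1.46% (1.14 to 1.87). The interval of replicate 3 did not overlap those of replicates 1 and 4, but these intervals cover counting error only. The share of other pairs with such a gap is not given here, and replicate 3 stood apart in many genes. Among its paralogs, Pim1 held 5.86 times the counts per base of Pim2 (4.05 to 8.71) and 6.16 times those of Pim3 (4.12 to 9.52), both named after their values were seen.

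**Figure D3:**
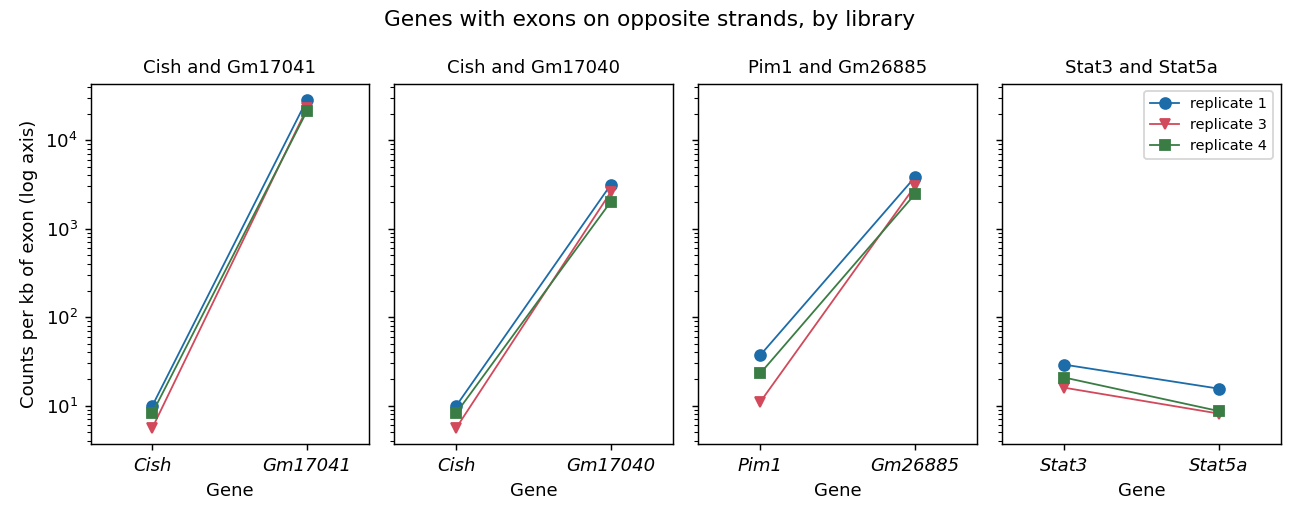
Counts per kb of exon (log axis) of 4 opposite-strand pairs in replicates 1, 3 and 4, each library joined by a line. The lines rise steeply from Cish and Pim1 to the genes opposite them and fall from Stat3 to Stat5a, with the same direction in all 3 libraries.

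Replicates were then compared gene by gene. Variation between libraries beyond genes of the same level was called by edgeR in 1 of the 10 genes, Il2ra (adjusted p = 0.0200), beside 0.144% of the 6922 genes tested. For the other 9 genes the adjusted p was 0.832 or more. The call for Il2ra was lost without replicate 3, without replicate 4, with DESeq2 size factors and with no filter on low counts. The biological coefficient of variation over all genes was 0.266, and 0.142 without replicate 3.

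In the edgeR quasi-likelihood test of replicate 3 against replicates 1 and 4, 3 of the 10 genes were lower in replicate 3, beside 12.4% of genes lower and 2.79% higher over all 6922. The log2 fold was -1.64 ± 0.19 for Il2ra (SE, adjusted p = 2.46e-14), -1.44 ± 0.43 for Il2rb (0.0126) and -1.22 ± 0.37 for Pim1 (0.0143). With DESeq2 size factors, 379 genes were lower and 212 higher in place of 858 and 193, the median of all genes moved by 0.107, and 1 of the 10 genes, Il2ra, was still called. The DESeq2 test put 0.52% of all genes lower in replicate 3 and also called Il2ra alone among the 10 (-1.53, adjusted p = 3.73e-05). Jak3 had -1.60 ± 0.60 (adjusted p = 0.0501), Stat5b -0.75 ± 0.42 (0.214), Cish -0.49 ± 0.38 (0.393), Stat3 -0.42 ± 0.23 (0.203) and Stat5a -0.33 ± 0.32 (0.514), and none of these passed. The antisense genes stood at 0.09 ± 0.08 (Gm17041, 0.470) and 0.18 ± 0.10 (Gm26885, 0.207). The same test of replicate 1 or of replicate 4 called 0 of the 10 genes, 0 at an unadjusted p under 0.05 and 0 with DESeq2, beside 0.0289% of all genes higher and 0% lower for replicate 1, and 0.0144% higher and 0.0289% lower for replicate 4.

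The class of gene moved with this result. Genes without opposite-strand exons held 9.26% and 8.67% of the counts in replicates 1 and 4 and 5.78% in replicate 3. Their median difference in replicate 3 was -0.82 on the log2 scale, with 22% of 3060 called lower, against 0.12 and 4.82% of 3862 for genes with such exons. Il2ra, Il2rb, Jak3 and Stat5b belong to the first class, where they stood at places 497, 711, 552 and 1632 of 3060 from the lowest. Fitted on that class alone, an alternative added after the data were seen, Il2ra was at -0.80 (adjusted p = 0.268), Il2rb at -0.61 (0.480), Jak3 at -0.77 (0.531), and Stat5b turned to 0.09 (0.936). None of the 4 was called there. In that fit 19 genes (0.621%) were lower and 138 higher of 3060, where the fit on all genes had 672 lower and 25 higher in this class, so the balance of calls turned with the set of genes fitted. Pim1 has opposite-strand exons and was not part of that fit.

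**Figure D4:**
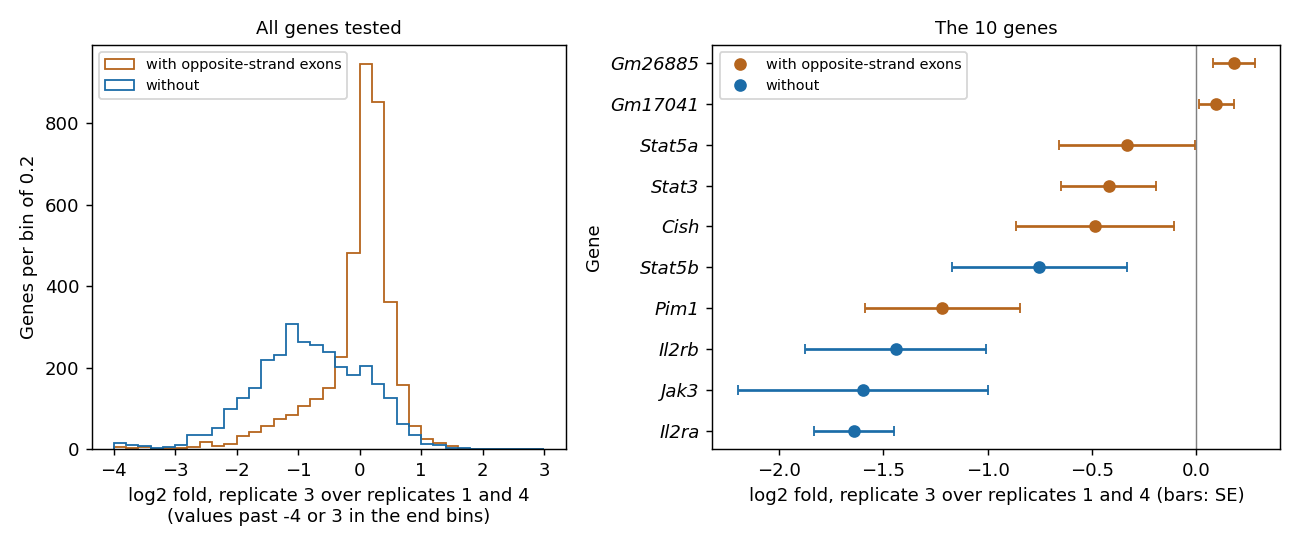
Left, number of genes per bin of 0.2 of the log2 fold of replicate 3 over replicates 1 and 4, for genes with and without opposite-strand exons. Right, the same fold for the 10 genes with bars of 1 SE, coloured by class: Il2ra is lowest at -1.64 and Gm26885 highest at 0.18, and the 2 antisense genes lie above 0.

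The summed level of T helper markers was lowest in replicate 3, and that of markers of other cells was not. Of 8 T helper markers, all were above 1 TPM, beside 80.4% of all genes tested. Their summed level was 191, 88.7 and 199 TPM in replicates 1, 3 and 4. Of the 8, 3 have opposite-strand exons. The median log2 fold of the 8 in replicate 3 was -1.39, beside -0.11 for all genes and -0.82 for genes without such exons. Il4, one of the 8, had its highest level in replicate 3, at 47.6 TPM against 31.7 and 40.6 TPM in replicates 1 and 4 (log2 fold 0.57 ± 0.32, SE). Of 13 markers of other cells, 7 had no count in these libraries: Ncr1, Klrb1c, Ms4a1, Itgam, Itgax, Mcpt8 and Hbb-bs. The summed level of the 13 was 226, 228 and 245 TPM, nearly all of it from Foxp3 and Csf1r. Csf1r stood at 140 ± 9.75 TPM and Foxp3 at 91.2 ± 0.70 TPM, above the highest T helper marker, Il13 at 65.7 ± 41.3 TPM. Both have exons of other genes opposite theirs, Hmgxb3 with 31 counts against 2879 for Csf1r and Ccdc22 with 13 against 1536 for Foxp3. Which strand these fragments came from was not tested. The part of cell makeup or of strand class in the low values of replicate 3 was not tested. Fewer cells of a type and less RNA per cell cannot be told apart in these libraries.

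Genes whose profile over the 3 libraries was most like that of Il2ra were found by the Euclidean distance of centred log2(CPM + 1), among 2960 genes with a mean count of 50 or more. They were Brd2 at a distance of 0.034, Chd2 at 0.042, Rpl3 at 0.053, Hsp90aa1 at 0.074 and Sept7 at 0.076. Il2ra stood at 323.7, 87.1 and 271.4 CPM in replicates 1, 3 and 4 and Brd2 at 43.5, 11.4 and 36.2 CPM. The choice of these genes by their profile fixes that they resemble Il2ra in each library.

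Around the 10 genes, 66 genes of the pathway in 7 lists were read the same way, and the lists hold the 8 protein-coding genes above. Of these 66 genes, 43 had enough counts to be tested, 36 (83.7%) lay above 1 TPM, 0 below and 7 were undecided (limma), beside 80.4% above over all genes tested. This share also stands behind the counts per list that follow, and a count near it says nothing about a list. Replicate 3 was lower in 15 and higher in 2 of the 43, beside 12.4% and 2.79% of all genes. The median difference was -0.89 on the log2 scale beside -0.11 for all genes, and most of the 43 lack opposite-strand exons. The 29 without such exons had a median of -0.93 beside -0.82 for all genes of that class, with 11 lower and 0 higher. The 14 with such exons had -0.53 beside 0.12, with 4 lower and 2 higher. The ligands had 3 of 3 tested genes above 1 TPM, led by Il21 at 227 ± 79.4 TPM, a helper cytokine, and Il4 at 40.0 ± 7.95 TPM. Il2 itself had 39, 8 and 32 counts and stood at 16.4 ± 9.88 TPM, while Il9 had 17 counts in all and was not tested. In replicate 3 Il21, which has opposite-strand exons, was higher, with a log2 fold of 0.98 ± 0.12 (SE, edgeR) beside 0.12 for its class. Il2, which has none, was lower on 8 counts, with -1.92 ± 0.59 beside -0.82 for its class. All 6 tested receptor chains lay above 1 TPM, among them Il21r at 10.3 ± 3.91 TPM and Il7r, the interleukin 7 receptor, at 6.25 ± 1.32 TPM. The 6 tested receptor chains had a median log2 fold of -1.05 in replicate 3, beside -0.11 for all genes and -0.82 for those without opposite-strand exons.

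The kinases and transcription factors followed, each count above 1 TPM again beside 80.4% of all genes tested. Of the JAK kinases, 3 of 3 tested genes were above 1 TPM, with Jak2 at 30.3 ± 17.3 and Jak1 at 3.80 ± 2.55 TPM. Tyk2 was not tested at 24 counts in all. The median log2 fold in replicate 3 was -1.78 for the tested JAK kinases, -0.59 for the STAT genes and -0.60 for the feedback inhibitors. It was -0.80 for the STAT5 targets and -1.04 for the adaptors, beside -0.11 for all genes and -0.82 for those without opposite-strand exons. Of 6 tested STAT genes, 4 were above 1 TPM and 2 undecided, and Stat6, the transducer of interleukin 4, stood at 5.89 ± 3.15 TPM. Of the feedback inhibitors, 5 of 6 tested genes were above 1 TPM. The phosphatase genes Ptpn6 (12.9 ± 5.22 TPM) and Ptpn2 (6.62 ± 3.71 TPM) had higher means than Cish. Socs1, another inhibitor of JAK kinases, stood at 5.48 ± 5.03 TPM, and the ratio of Cish to Socs1 per base was 0.938 (0.634 to 1.43), an interval that includes 1. Of the STAT5 targets, 13 of 14 were above 1 TPM, led by the costimulatory receptors Tnfrsf18 at 35.9 ± 4.13 and Tnfrsf4 at 31.3 ± 18.8 TPM, with Myc, a driver of growth, at 13.4 ± 6.22 TPM. Of the adaptors, 2 of 5 tested genes were above 1 TPM, the kinase Lck at 11.9 ± 5.16 and the linker Grb2 at 5.19 ± 2.12 TPM.

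Of the 43 tested pathway genes, 14 had opposite-strand exons, beside 3862 of all 6922 genes tested. Of 15 pathway genes with an opposite gene and at least 30 counts together, 13 had more counts per base on the opposite gene in all 3 libraries, beside 66.7% of 3586 protein-coding genes with such a partner, and Stat3 and Jak1 were the exceptions. Per base, 1700084C06Rik held 1796 times the counts of Tyk2, Gm16008 216 times those of Tnfrsf18, Gm20531 111 times those of Ptpn6 and Nab2 8.44 times those of Stat6. Gm12534 held 2.28 times those of Il21. Gm17041 over Cish exceeded each of these, and Gm26885 over Pim1 lay between Ptpn6 and Tnfrsf18.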

How the data were processed

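RNA of 4 Th2 libraries was sequenced. The deposited files held raw fragment counts per gene on strand setting 1, which the authors obtained by aligning to mm10 with STAR and counting over GENCODE vM13 exons with featureCounts 1.4.6-p4, per the file headers. Fragments in several genes or places were not counted. The labels call the assay total RNA-seq, while the protocol document they name speaks of poly(A) RNA, and the strandedness of the kit is not given, so the strand setting could not be checked against it. Gene symbols came from GENCODE vM21 by gene identifier (224 of 50600 had none). CPM and TPM were computed from the counts and exonic lengths with Python 3.11.15.

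limma 3.58.1 set each level, as log2(TPM + 0.1), against 1 TPM. Variation and single libraries were tested with edgeR 4.0.16 (TMM, goodness of fit and quasi-likelihood), the latter assuming the same variation in the single library and comparing libraries, not conditions. Opposite-strand pairs (exon overlap of 1 base or more, bedtools 2.31.1, 30 or more counts together) were tested with limma on log2 counts per base, longer over shorter gene, 0.5 added. Genes needed a mean count of 10, and p-values were adjusted by Benjamini-Hochberg at 0.05 over all genes or pairs. DESeq2 1.42.0 was an alternative. Tests were checked on simulated data. The simulated counts varied less than these counts and held no shift of a whole class of genes, so that check does not cover the calls in replicate 3. Intervals and the floor of 3 counts cover counting error only, since no molecular identifiers tell PCR copies apart.

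The genes, lists and tests were chosen with earlier results of these data known. Named genes were the 10, genes overlapping them, up to 4 genes of each list by mean TPM, called genes and the 5 genes most like Il2ra. Promoter windows came from RefSeq (GRCm38.p6). Left out of the tests was replicate 2, which enters as an alternative. Other alternatives were the pseudocount, the count filter, the scaling and leaving out each library. A result for 1 preset marker is not reported here.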

Additional observations from a re-analysis of the deposited data

Results flagged for a closer look

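In 12 genes (the 10, Gm17040 and Insl3), each library's TPM was set against the other 3. For 3 of them 1 library lay far from the rest, where chance gives about 1 in 20. That rate takes the same spread in all 4 libraries, which replicate 2 with its 5016 counts need not have. Insl3 had 0 counts throughout and could not be flagged. Gm17041 was at 7689 TPM in replicate 2, on 12 counts, against 16646 to 17912 in the others. Pim1 was at 116.3 TPM in replicate 2, which is a single count there, against 8.02 to 22.2. Gm17040 was at 1702 TPM in replicate 4, against 1880 and 1897 in replicates 1 and 3 and 1868 in replicate 2, the last on 7 counts.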

How the results depend on the processing

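No paired analysis was possible because the libraries form a single group. The 10 genes above 1 TPM became 3 with all 4 libraries, and the 36 pathway genes became 5. Of the tested values for single genes, 94 kept their direction and their side of the threshold, 17 lost a call and 1 gained one. A further 20 values compared replicate 3 with 1 other library, with no test. The single value that turned was that of Stat5b in replicate 3, from -0.75 to 0.087 on the log2 scale among genes without opposite-strand exons only (adjusted p = 0.936). Jak3 lost its level above 1 TPM with no filter (adjusted p = 0.0617).

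Variation was called in 10 genes and in 6 with DESeq2 size factors, 3 with no filter, 17 with all 4 libraries, 3 among genes without opposite-strand exons and 2 to 10 when each library was left out. Of the 10 genes 1 was called, and edgeR called 0 with DESeq2 size factors and with no filter (1 each at an unadjusted p under 0.05), 0 among genes without opposite-strand exons (0 unadjusted), and 0 to 1 when each library was left out. Genes apart in replicate 1 numbered 2, and 1 with no filter and 0 in genes without opposite-strand exons (27 unadjusted). Genes apart in replicate 3 numbered 1051, and 591 with DESeq2 size factors, 157 in genes without opposite-strand exons and 56 with DESeq2. Of the 10 genes, 3 were apart in replicate 3, and 1 with DESeq2 size factors, 0 in genes without opposite-strand exons (0 unadjusted) and 1 with DESeq2. Il2rb and Pim1 lost their call with DESeq2 size factors (adjusted p = 0.0543 and 0.0549). Pim1 also lost it with no filter (0.0685), and Jak3 passed with all 4 libraries (0.0340). Genes apart in replicate 4 numbered 3, and 0 in genes without opposite-strand exons (43 unadjusted) and 0 with DESeq2 (10 unadjusted). The cause of these changes was not tested.

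For the pairs, Stat3 over Stat5a fell to 0.67 on the log2 scale with all 4 libraries (adjusted p = 0.291), where replicate 2 had 0 counts of both. With no length correction the pooled ratios were 2.71 for Stat3 over Stat5a, 0.00441 for Cish over Gm17041 and 0.0172 for Cish over Gm17040. The log2 ratio was -11.72 to -11.39 for Cish over Gm17041 and -7.39 to -6.69 for Pim1 over Gm26885 when each library was left out. Depth limits Jak3, Stat5b and Il2rb most, at 8 to 68 counts per library.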
